A study of Saccharomyces cerevisiae with 20 samples.

Results

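The 46 genes described here encode subunits of the 3 nuclear RNA polymerases of Saccharomyces cerevisiae and the factors that place polymerases I and III on their genes. They were chosen by gene symbol, as the probe sets annotated with 1 of 46 names, out of the 5266 genes that had a probe set with a usable signal, and all 46 had one. By role they are 7 core subunits of Pol I (RPA12, RPA14, RPA34, RPA43, RPA49, RPA135, RPA190), 7 initiation factors of Pol I (RRN3, RRN5, RRN6, RRN7, RRN9, RRN10, RRN11), 7 core subunits of Pol II (RPO21, RPB2, RPB3, RPB4, RPB7, RPB9, RPB11) and 10 core subunits of Pol III (RPO31, RET1, RPC11, RPC17, RPC25, RPC31, RPC34, RPC37, RPC53, RPC82). The names also hold 4 subunits built into all 3 enzymes (RPB5, RPB8, RPB10, RPO26), 2 shared by Pol I and Pol III (RPC19, RPC40), 6 subunits of the Pol III assembly factor TFIIIC (TFC1, TFC3, TFC4, TFC6, TFC7, TFC8), 2 of the Pol III initiation factor TFIIIB (BRF1, BDP1) and the Pol III repressor MAF1. The prefixes RPB and RPC thus do not mark a polymerase by themselves, and the shared subunits were kept apart from the cores.

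The samples were 20 Affymetrix YG-S98 arrays of the prototrophic laboratory strain CEN.PK113-7D (MATa MAL2-8C SUC2), grown in bioreactors on 20 g/L glucose at 30 °C as 2 independent aerobic and 2 independent anaerobic batch cultures. Each aerobic culture was sampled at 6 points, which were the exponential phase, the late exponential phase, the diauxic shift, the post-diauxic phase, early stationary phase (SP) and late SP. Each anaerobic culture was sampled at 4 points, which were the exponential phase, the end of that phase, early SP and late SP. Aerobic cultures used glucose first, paused at the diauxic shift and then respired the ethanol and acids they had made, so that their SP began when those were gone, whereas anaerobic cultures went from glucose exhaustion straight into SP. The anaerobic medium alone was supplemented, through an ethanol solution, with Tween 80 at 420 mg/L and the sterol ergosterol at 10 mg/L, so that oxygen and these supplements cannot be told apart. All cultures were of the same genotype, and n is 2 cultures in every condition.

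The signals are linear array intensities that had been scaled to a common average on every array, so that each value is relative to the other messages of that sample. A lower signal can therefore not be split into fewer cells that carry the message and fewer copies per cell. Signals of 1 probe set are compared between conditions and never with those of another probe set. The lowest reliable signal is taken as 12, and lower signals were set to it before logarithms were taken. Among the members, 35 had no array at or below 12 and 11 had at least 1. The array medians ran from 44.1 to 69.4. The 2 aerobic late SP arrays stood apart in that 1823 and 1847 of their features lay below 12, against 2279 to 2822 on the other 18 arrays, and in the actin control, where the signal of the 3' feature was 2.68 and 2.1 times that of the 5' feature there and 1.2 to 2.03 times elsewhere. The part of this in the aerobic late SP values was not tested.

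Pol I transcribes a single kind of gene, the repeated ribosomal DNA unit that yields the large ribosomal RNAs. Pol III makes transfer RNAs, the 5S ribosomal RNA and a few other small RNAs, and Pol II makes the messenger RNAs and many small nucleolar RNAs. In growing yeast most transcription is by Pol I and Pol III, and both are turned down when nutrients run out. For Pol I this involves the factor Rrn3, which joins the enzyme to the core factor (Rrn6, Rrn7, Rrn11) on the ribosomal DNA promoter. The upstream activating factor (Rrn5, Rrn9, Rrn10) binds that promoter as well. For Pol III, TFIIIC binds the promoter, TFIIIB is placed upstream of it and recruits the enzyme, and Maf1 binds Pol III and blocks it under starvation. The data give the messages for these proteins, not the activity of the enzymes.

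The messages of the Pol I core, the Pol III core and the shared subunits, 23 genes, mostly followed growth. With oxygen 17 of the 23 fell at the diauxic shift, 13 rose in the post-diauxic phase and 21 fell on entry into SP, and without oxygen all 23 fell on entry into SP. RPC34, RPC37 and RPC82 were among those not called at the shift, and RPC19 and RPC37 had their highest mean in the post-diauxic phase. Most Pol II core subunits and most factors varied much less. A gene was called changed in a comparison when it differed at least 2-fold with an adjusted p below 0.05 in a limma fit over all 20 arrays with Benjamini-Hochberg adjustment. From the anaerobic exponential phase to anaerobic late SP, 32 of the 46 members were called lower and 1 higher, where 29.8% of all genes were called lower and 23.8% higher, and the median log2 change was -1.85 for the members and -0.16 for all genes. From the aerobic exponential phase to aerobic late SP, 25 members were called lower and 3 higher, beside 26.3% and 25.2% of all genes, with medians of -1.15 and 0. Between the neighbouring aerobic phases, 17 members fell and 1 rose at the diauxic shift (12.3% and 19.9% of all genes), 13 rose and none fell in the post-diauxic phase (6.8% and 3.68%), and 24 fell and none rose on entry into early SP (11.6% and 6.93%). Without culture 1 of the diauxic shift the count of 13 became 8. At the end of anaerobic growth, 27 members fell and none rose on entry into early SP (24.6% and 24.8% of all genes). All 23 subunits of the Pol I core, the Pol III core and the shared group fell in the anaerobic comparison, with a median of -2.97, and 20 of them fell in the aerobic one, with a median of -2.39.

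**Figure D1:**
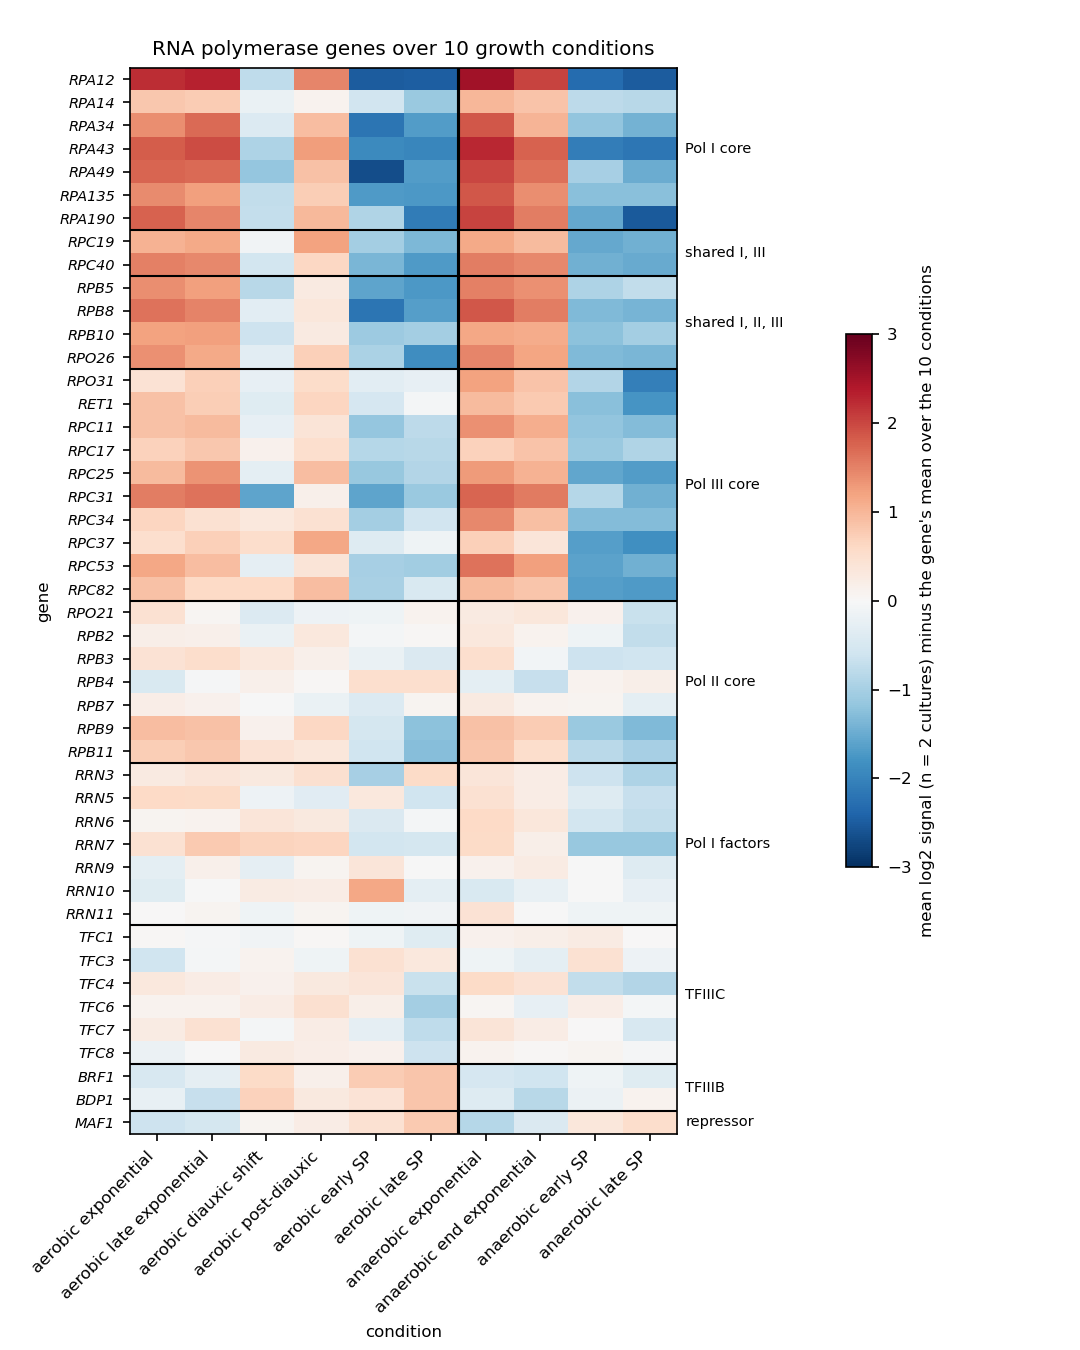
Mean log2 signal of each of the 46 genes (rows, grouped by role) in each of the 10 conditions (columns, aerobic left of the line and anaerobic right), minus the mean of that gene over the 10 conditions, with red above and blue below it and n = 2 cultures per cell. Most Pol I core, Pol III core and shared subunits are red in the exponential phases and blue in SP, most Pol II subunits and factors are pale, and BRF1, BDP1 and MAF1 are reddest in aerobic late SP.

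The likeness of these courses was described by the correlation of each gene's 10 condition means with the mean of the Pol I core. A core gene was left out of the mean with which it was compared. The 10 conditions come from only 4 cultures. The correlation was 0.961 to 0.996 for the Pol I core and 0.97 to 0.984 for the 4 members built into all 3 enzymes. It was 0.965 and 0.995 for RPC19 and RPC40. It was 0.741 to 0.981 for the Pol III core, with RPC37 lowest and RPC11 highest. Within the Pol II core it ran from -0.833 for RPB4 to 0.948 for RPB9, and for the 7 Pol I factors from -0.411 (RRN10) to 0.809 (RRN7). TFIIIC subunits lay between -0.749 (TFC3) and 0.882 (TFC7). It was negative as well for BRF1 (-0.672), BDP1 (-0.71) and MAF1 (-0.923).

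RPA190 (YOR341W) encodes the largest subunit of Pol I, which carries much of the active site. Its aerobic signals in cultures 1 and 2 were 698 and 1086 in the exponential phase, 758 and 648 in late exponential phase, 124 and 195 at the diauxic shift, 495 and 509.7 in the post-diauxic phase, 141 and 132 in early SP, and 53.2 and 66 in late SP. The anaerobic signals were 999 and 1083 in the exponential phase, 673 and 823 at its end, 100.5 and 77.4 in early SP, and 43.3 and 45.3 in late SP. Every exponential array lay above every other array, and the post-diauxic pair lay between them and the rest. The fall from exponential phase to late SP was 14.7-fold with oxygen and 23.5-fold without, with log2 changes of -3.88 (SE 0.24) and -4.55 (SE 0.24) and limma adjusted p of 2.69e-09 and 8.83e-10. RPA190 was also the 1 subunit of the Pol I core that fell again between aerobic early and late SP, by 1.2 on the log2 scale (SE 0.24, adjusted p = 0.000923). Of the 6 other probe sets annotated with RPA190, 3 never reached a signal of 20 on any array. The remaining 3 gave log2 changes of -0.18, -1.61 and -2.3 in the aerobic comparison and -0.23, -1.74 and -3.36 in the anaerobic one, where the weakest of them peaked at a signal of 23.

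RPA135 (YPR010C), the other large catalytic subunit of Pol I, took the same course up to SP. Its aerobic signals were 535 and 782 in the exponential phase, 660.4 and 483 in late exponential phase, 137 and 151 at the diauxic shift, 377 and 425 in the post-diauxic phase, 71.4 and 77.5 in early SP, and 66 and 81.3 in late SP. Its anaerobic signals were 866 and 885 in the exponential phase, 674 and 604 at its end, 114 and 90 in early SP, and 118 and 88 in late SP. The SP arrays of both regimes lay below all others, and early and late SP overlapped within each regime. The log2 change from exponential phase to late SP was -3.14 (SE 0.22, adjusted p = 9.56e-09, limma) with oxygen and -3.11 (SE 0.22, adjusted p = 1.68e-08) without.

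RPA12 (YJR063W) encodes a small subunit that takes part in RNA cleavage and termination by Pol I. Its signals were 269 and 362 in the aerobic exponential phase, 423 and 262 in late exponential phase, 37.5 and 41.4 at the diauxic shift, 174 and 195 in the post-diauxic phase, 1.4 and 2.1 in early SP, and 1 and 12.2 in late SP. The anaerobic cultures gave 392 and 376, then 275 and 275, 15.1 and 12.1, and 2.6 and 10.3. SP signals were thus at or about the floor, and folds against SP are lower bounds. The fall from exponential phase to late SP was at least 25.8-fold with oxygen (adjusted p = 6.43e-11, limma) and at least 32-fold without (adjusted p = 5.87e-11), and it was at least 15.3-fold from the aerobic post-diauxic phase to early SP (adjusted p = 4.43e-09).

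The other Pol I core subunits are RPA34 and RPA49, which form a pair that aids elongation, and RPA43 and RPA14, which form the stalk that Rrn3 contacts. RPA43 (YOR340C) has the systematic name next to RPA190. From exponential phase to late SP, the 7 core subunits fell by 1.93 to 4.69 on the log2 scale with oxygen, and without oxygen the log2 changes ran from -1.85 to -5. RPA14 changed least in both. The values of RPA12 and RPA43, each with 3 of its 4 late SP signals below 12, are lower bounds. At the diauxic shift 6 of the 7 were lower than in late exponential phase, with a median log2 change of -2.17. RPA14 was the exception at -0.96 (SE 0.21, adjusted p = 0.00149), just under the fold threshold. The same 6 genes rose again from the diauxic shift to the post-diauxic phase, with a median of 1.69, and the same 6 fell from there to early SP, with a median of -3.1. These consecutive comparisons share arrays, so a low diauxic shift array enters both of the first 2. In the post-diauxic phase itself none of the 7 differed from the aerobic exponential phase by the call, and their log2 differences were all negative, between -0.87 and -0.47, beside a median of 0.29 for all genes.

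**Figure D2:**
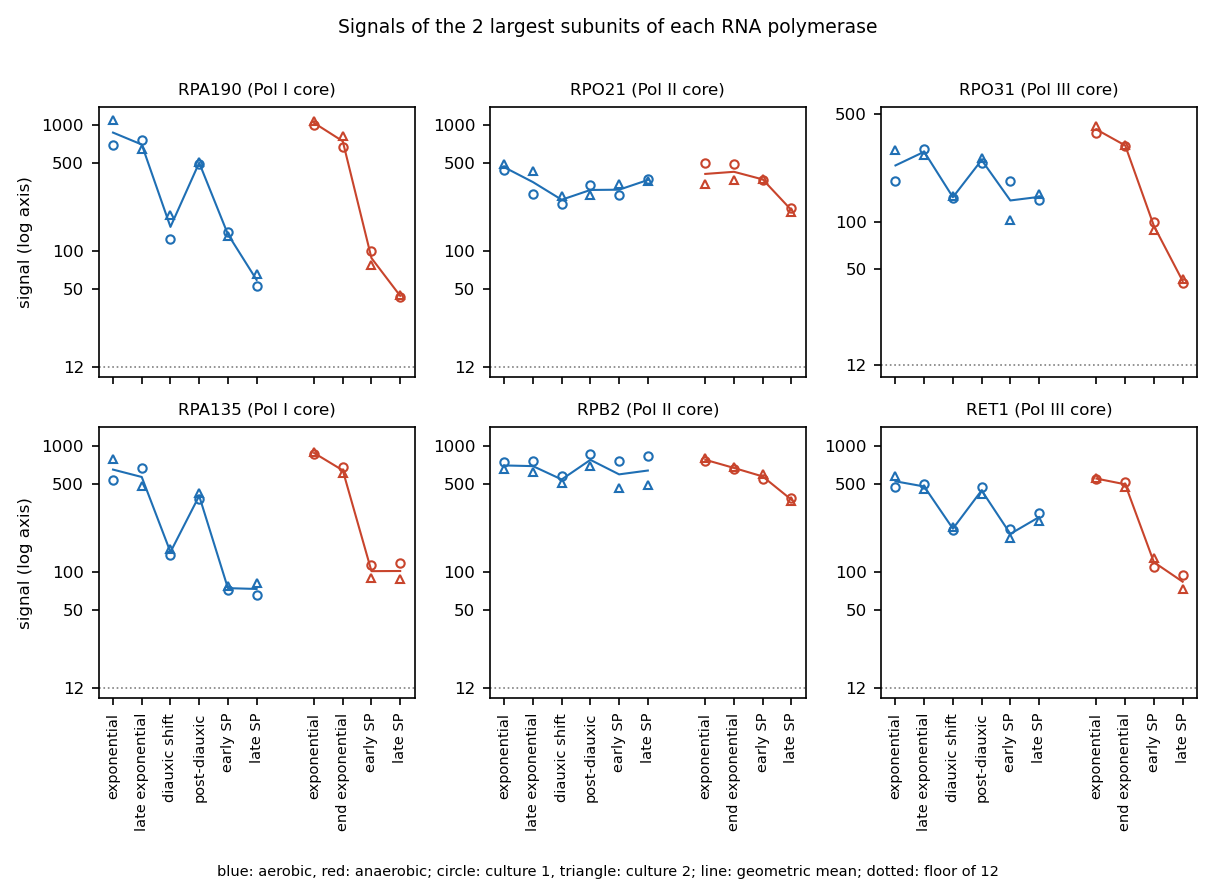
Signal (log axis, arbitrary array units) of the largest subunit (upper row) and of the next largest (lower row) of Pol I, Pol II and Pol III in each aerobic (blue) and anaerobic (red) condition, with a circle for culture 1, a triangle for culture 2, a line through the geometric means and a dotted line at the floor of 12. RPA190 and RPA135 drop at the diauxic shift, return in the post-diauxic phase and drop in SP, RPO21 and RPB2 vary less and are lowest in anaerobic late SP, and RPO31 and RET1 end lower without oxygen than with it.

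The 4 members whose subunits all 3 enzymes share, RPB5, RPB8, RPB10 and RPO26, had courses like the Pol I core and unlike most of the Pol II core. RPB9 (0.948) and RPB11 (0.924) of the Pol II core also correlated closely with the Pol I mean. So did RPC11 (0.981) and RPC53 (0.971) of the Pol III core. Likeness to the mean of the Pol II or Pol III core was not computed. RPC10, also for a subunit of all 3 enzymes, was not among the members and is given further below. RPB8 (YOR224C) had signals of 1005 and 2146 in the aerobic exponential phase, 1541 and 1159.8 in late exponential phase, 385 and 377 at the diauxic shift, 461 and 765 in the post-diauxic phase, 118 and 91.5 in early SP, and 151 and 149 in late SP. In the anaerobic cultures they were 1866 and 1592, 1237 and 1509.7, 186 and 193, and 166 and 193. The exponential arrays did not overlap with those of any later phase, and the 2 aerobic exponential cultures differed from each other by more than any other pair of RPB8 signals in a condition. The log2 change to late SP was -3.29 with oxygen and -3.27 without (SE 0.3 for both, adjusted p = 1.45e-07 and 1.98e-07, limma). All 4 fell at the diauxic shift (median log2 change -1.83), all 4 fell again on entry into aerobic early SP (-1.77), and all 4 fell on entry into anaerobic early SP (-2.42). RPB5 and RPO26 rose in the post-diauxic phase by 1.09 and 1.04, and RPB8 and RPB10 had values of 0.64 and 0.9 that were not called. In the post-diauxic phase against the aerobic exponential phase, the Pol I core had negative values without a call. RPB5 and RPB8 were called lower there (log2 changes -1.13 and -1.31), and each call was lost under 3 of 15 alternatives. Their difference from the Pol I core was not tested. Of all genes, 3.27% were called lower and 16.5% higher in this comparison. RPC31 (-1.39) was the third of the 46 members called lower there, and the count of 3 became 1 without aerobic exponential culture 2 or post-diauxic culture 1 and 9 without aerobic exponential culture 1.

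RPC40 (YPR110C) and RPC19 encode the pair from which Pol I and Pol III are assembled, in the place that Rpb3 and Rpb11 take in Pol II. RPC40 signals were 219 and 269 in the aerobic exponential phase, 261 and 205 in late exponential phase, 48 and 70.4 at the diauxic shift, 118 and 145 in the post-diauxic phase, 30 and 36.3 in early SP, and 20.6 and 32.7 in late SP. The anaerobic values were 244 and 248, 231 and 228, 31.1 and 31.5, and 30.9 and 28.9. The arrays of growth on glucose, of the post-diauxic phase, of the diauxic shift and of SP formed separate levels in that order, with no overlap between levels. RPC40 fell by 3.22 and RPC19 by 2.39 on the log2 scale from aerobic exponential phase to late SP, and by 3.04 and 2.57 without oxygen. Their Pol II counterparts gave -0.88 (RPB3, not called) and -2.01 (RPB11) with oxygen and -1.1 and -1.84 without, both called.

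The Pol III core had a course of the same shape in anaerobic cultures and, by its median, a shallower one in aerobic cultures. The difference of the 2 courses to late SP ran from 0.06 to 2.57 and was called for 6 of the 10 genes. With signals below 30 set to 30, only RPO31 and RET1 of these kept the call. All 10 genes fell from the end of the anaerobic exponential phase to early SP, with a median log2 change of -2.24, and all 10 were lower in anaerobic late SP than in the exponential phase, with a median of -2.72. Of all genes, 24.6% and 29.8% were called lower in these 2 comparisons. With oxygen 5 of 10 fell at the diauxic shift (median -1.04), 3 rose in the post-diauxic phase (median 0.64), 9 fell on entry into early SP (median -1.52), and 7 were lower in late SP than in the exponential phase (median -1.44). The shares of all genes called in the same directions were 12.3%, 6.8%, 11.6% and 26.3%, in that order.

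RPO31 (YOR116C) encodes the largest Pol III subunit, the homolog of RPA190. Its aerobic signals were 187 and 292 in the exponential phase, 299 and 274 in late exponential phase, 144 and 147 at the diauxic shift, 244 and 263 in the post-diauxic phase, 186 and 103 in early SP, and 141 and 152 in late SP. In the anaerobic cultures RPO31 gave 375 and 422, 310.1 and 318, 101 and 89.3, and 40.9 and 43. The anaerobic late SP pair was the lowest of all, below the aerobic late SP pair with no overlap, whereas the aerobic early SP cultures differed widely. RPO31 fell 9.49-fold from anaerobic exponential phase to late SP (log2 change -3.25, SE 0.24, adjusted p = 2.51e-08, limma), and its aerobic change was -0.67 (SE 0.24, adjusted p = 0.021), which did not reach 2-fold.

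RET1 (YOR207C), for the next largest subunit, gave 469.7 and 580.4 in the aerobic exponential phase, 493 and 458 in late exponential phase, 214 and 226 at the diauxic shift, 469.8 and 416 in the post-diauxic phase, 218 and 184 in early SP, and 294 and 251 in late SP. The anaerobic signals were 544 and 554, 514 and 475, 110.3 and 129, and 95.1 and 73.5. In this gene the aerobic diauxic shift and SP arrays shared a middle level that neither growing cultures nor anaerobic SP cultures reached. The log2 change to late SP was -0.94 with oxygen (SE 0.18, adjusted p = 0.000218, below the fold threshold) and -2.71 without (SE 0.18, adjusted p = 6.92e-09).

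RPC31 (YNL151C), which belongs to the subcomplex through which Pol III meets TFIIIB, changed most among the Pol III core genes from aerobic exponential phase to late SP. Its signals were 94.9 and 116 in the exponential phase, 135 and 92.9 in late exponential phase, 2.7 and 3.9 at the diauxic shift, 42 and 38 in the post-diauxic phase, 1.3 and 1.7 in early SP, and 14.2 and 19.4 in late SP. The anaerobic arrays gave 111 and 131, 104 and 108, 18.7 and 21.4, and 11.5 and 14.7. It was thus under the floor at the aerobic diauxic shift and in aerobic early SP, and above it on 1 or both arrays of every other condition. The fall at the diauxic shift was at least 9.33-fold (adjusted p = 9.01e-09, limma) and the rise after it at least 3.33-fold (adjusted p = 5.63e-05). The 2 partners of Rpc31, encoded by RPC34 and RPC82, had log2 changes at the diauxic shift of -0.14 and -0.01 that were not called, and fell on entry into aerobic early SP by 1.48 and 1.89.

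Further Pol III core subunits are Rpc11, the cleavage subunit, the stalk pair Rpc17 and Rpc25, and Rpc37 and Rpc53, which act in initiation and termination. RPC11, RPC25 and RPC53 fell at the aerobic diauxic shift by 1.22, 1.63 and 1.19 on the log2 scale, and with RPC17 they were lower in aerobic late SP, by 1.68 (RPC11), 1.52 (RPC17), 1.85 (RPC25) and 2.21 (RPC53). RPC37 was not called there (-0.63, SE 0.26, adjusted p = 0.0402). In anaerobic late SP these 5 genes stood at log2 changes between -1.58 (RPC17) and -3.08 (RPC53), all called. RPC25, RPC34 and RPC37 were below 12 on both anaerobic late SP arrays, so that their falls were at least 7.84-fold, 6.69-fold and 5.95-fold.

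The Pol II core was the least changed of the enzyme cores. None of its 7 genes was called at the diauxic shift, where 12.3% of all genes fell and 19.9% rose. The same held in the post-diauxic phase (6.8% of all genes higher and 3.68% lower). On entry into aerobic early SP 1 fell, beside 11.6% of all genes. In aerobic late SP 2 were lower, namely RPB9 and RPB11, beside 26.3%. Both counts were near those shares. In anaerobic late SP 4 of the 7 were lower, beside 29.8% of all genes. This added RPB2 (-1.05) and RPB3 (-1.1) to RPB9 (-2.22) and RPB11 (-1.84), and the median of the 7 was -1.05 beside -0.16 for all genes. None was called higher in any comparison of 2 phases.

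RPO21 (YDL140C) encodes the largest Pol II subunit, whose C-terminal repeats recruit processing factors. Its aerobic signals were 438 and 489.5 in the exponential phase, 287 and 435 in late exponential phase, 237 and 276 at the diauxic shift, 333 and 281 in the post-diauxic phase, 279 and 338 in early SP, and 375 and 358 in late SP. In the anaerobic cultures RPO21 gave 496 and 338, 495 and 367, 365 and 377, and 218 and 205. Anaerobic late SP gave the lowest pair and the aerobic diauxic shift the next, and the aerobic exponential pair lay above all other aerobic pairs, those of late exponential phase included. The log2 change to late SP was -0.34 with oxygen (95% interval -0.83 to 0.15, adjusted p = 0.202, limma) and -0.95 without (-1.44 to -0.46, adjusted p = 0.00165), just under the fold threshold.

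RPB2 (YOR151C), for the other large Pol II subunit, gave 747 and 651 in the aerobic exponential phase, 762 and 624 in late exponential phase, 573 and 509 at the diauxic shift, 857 and 696 in the post-diauxic phase, 754 and 466 in early SP, and 832 and 486 in late SP. The anaerobic arrays gave 751 and 796, 658 and 675, 545 and 597, and 382 and 365. The diauxic shift pair lay below the pairs of the exponential, late exponential and post-diauxic phases, and the wide aerobic SP pairs overlapped with all of these. RPB2 was called lower in anaerobic late SP alone (-1.05, SE 0.25, adjusted p = 0.00143).

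RPB9 (YGL070C), a small subunit that acts in start site choice and proofreading, behaved unlike these. Its aerobic signals were 244 and 227, 252 and 205, 142 and 129.7, 171 and 214, 78.4 and 94.6, and 49.6 and 55.6 in the order of the 6 phases, and its anaerobic signals were 220.4 and 238, 201 and 218, 55.7 and 58.5, and 45.4 and 53.2. All arrays of earlier phases lay above all SP arrays. It fell 4.48-fold to aerobic late SP and 4.66-fold to anaerobic late SP, with log2 changes of -2.16 and -2.22 (SE 0.17 for both, adjusted p = 3.42e-08 and 3.69e-08, limma). RPB4 (YJL140W), which with RPB7 makes the stalk, had its highest mean in aerobic early SP, and its log2 difference between aerobic late SP and exponential phase was 0.95 (SE 0.23, adjusted p = 0.00168), short of the fold threshold, while RPB7 gave -0.12 (SE 0.16, adjusted p = 0.522).

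Set side by side, homologous subunits of the 3 enzymes separated in aerobic late SP against exponential phase. The largest subunits had log2 changes of -3.88 (RPA190), -0.34 (RPO21) and -0.67 (RPO31), and the next largest -3.14 (RPA135), -0.13 (RPB2) and -0.94 (RET1). Without oxygen the order was the same but the distances were not, with RPO31 at -3.25 and RET1 at -2.71, beside RPA190 at -4.55, RPA135 at -3.11, RPO21 at -0.95 and RPB2 at -1.05. Of the cleavage subunits, RPB9 and RPC11 fell by 2.16 and 1.68 on the log2 scale with oxygen and had changes of -2.22 and -2.68 without, and for RPA12 only the bounds given above are known. Among the stalk subunits RPB7 and RPC25 gave -0.12 and -1.85 with oxygen, RPA43 fell at least 13.9-fold, since 1 of its late SP signals was 3.8, and RPA14, RPB4 and RPC17 gave -1.93, 0.95 and -1.52. These differences between genes rest on separate probe sets and were not tested.

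**Figure D3:**
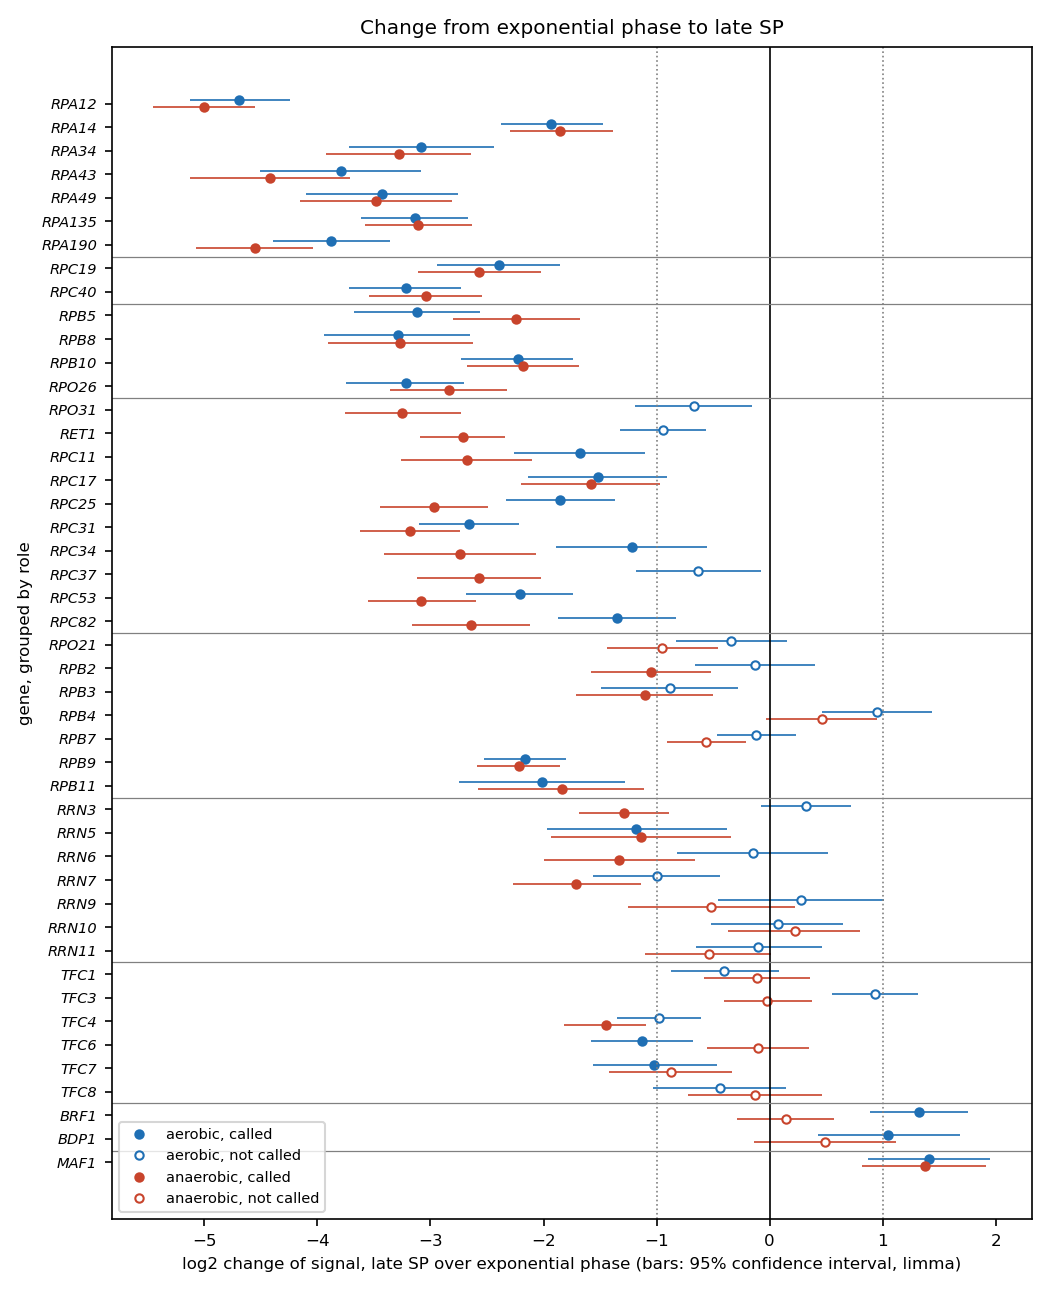
Log2 change of signal from exponential phase to late SP for the 46 genes (rows, grouped by role) in aerobic (blue) and anaerobic (red) cultures, with 95% confidence intervals from the limma fit, filled points for called genes and dotted lines at a 2-fold change. All 7 Pol I core genes lie left of -1 in both regimes, the Pol III core points of the 2 regimes separate for RPO31, RET1, RPC37 and RPC82, and BRF1, BDP1 and MAF1 lie to the right.

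The Pol I factors did not follow the Pol I core as a group. None of the 7 was called at the diauxic shift, where 12.3% of all genes fell and 19.9% rose. The same held in the post-diauxic phase (6.8% of all genes higher and 3.68% lower). On entry into aerobic early SP 2 fell (RRN3 and RRN7), beside 11.6% of all genes. In aerobic late SP 1 was lower (RRN5), beside 26.3%, and in anaerobic late SP 4 were (RRN3, RRN5, RRN6, RRN7), beside 29.8%. RRN3 (YKL125W) had aerobic signals of 90.5 and 111 in the exponential phase, 117 and 100.4 in late exponential phase, 104 and 102 at the diauxic shift, 119.5 and 115 in the post-diauxic phase, 44 and 39.4 in early SP, and 135 and 116 in late SP. Without oxygen the signals were 97.5 and 118, 109 and 85.9, 53.9 and 54.2, and 50.3 and 38.1. The aerobic early SP pair was a single dip between overlapping levels, and the anaerobic SP pairs stayed low. RRN3 fell 2.81-fold into aerobic early SP (log2 change -1.49, SE 0.19, adjusted p = 2.19e-05, limma) and rose 3.01-fold from there to late SP (1.59, SE 0.19, adjusted p = 1.42e-05), the only member called higher between these 2 samplings, where 6.74% of all genes were called higher and 17.2% lower. The other 4 called in that comparison were lower, namely RPA190, RRN10 (-1.47), TFC4 (-1.04) and TFC6 (-1.19).

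RRN7 (YJL025W), of the core factor, was weak but above 12 in all aerobic arrays (14.2 to 46.5) and below it in all 4 anaerobic SP arrays (6.9 to 9.9), which made its anaerobic fall to late SP at least 3.26-fold (adjusted p = 3.29e-05, limma). RRN6, another core factor subunit, gave 43.5 and 80.1 in aerobic exponential phase, 50.8 and 56 in aerobic late SP, 97 and 73.8 in anaerobic exponential phase and 33.4 and 33.9 in anaerobic late SP. Only its anaerobic change was called (-1.33, SE 0.31, adjusted p = 0.00138). RRN10 (YBL025W) of the upstream activating factor peaked in aerobic early SP at 115 and 151, against 66.4 and 69.9 in the post-diauxic phase and 53.1 and 42.7 in late SP.

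RRN5 (YLR141W), of the same factor, had aerobic signals of 175 and 147, 132 and 190, 87 and 108, 75.6 and 95.3, 141 and 126, and 52.8 and 95.7, and anaerobic signals of 164 and 129, 209 and 75.1, 86.2 and 77.3, and 69.1 and 63.7. The cultures differed widely in several phases, and the late SP cultures lay below the exponential ones in both regimes. Its log2 changes to late SP were -1.18 and -1.14 (SE 0.37 for both, adjusted p = 0.0108 and 0.0131, limma), but the 2 other RRN5 probe sets gave -0.16 and 0 with oxygen and 0.18 and -0.5 without, so the probe sets of RRN5 disagree. RRN11 was at or below 12 on 13 arrays and RRN9 on 6, and neither was called in any comparison.

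The 2 TFIIIB genes were called higher in aerobic late SP than in the exponential phase, and neither was called in a comparison of anaerobic phases. BRF1 (YGR246C) had aerobic signals of 137 and 124 in the exponential phase, 158 and 144 in late exponential phase, 298 and 246 at the diauxic shift, 217 and 191 in the post-diauxic phase, 354 and 269.7 in early SP, and 375 and 283 in late SP. The anaerobic signals were 128 and 130, 114 and 126, 165 and 168, and 169 and 121. Every aerobic array from the diauxic shift on lay above every exponential array and above every anaerobic array. The log2 change to aerobic late SP was 1.32 (SE 0.2, adjusted p = 2.88e-05, limma) and that to anaerobic late SP 0.14 (95% interval -0.29 to 0.57). BDP1 (YNL039W) rose at the diauxic shift, from 41.7 and 27.7 to 68.9 and 113 (1.37, SE 0.29, adjusted p = 0.00115), as the only member called higher there, and stood at 104 and 91.7 in aerobic late SP against 49.1 and 44.9 in exponential phase (1.05, SE 0.29, adjusted p = 0.00486). Its anaerobic signals were 38.4 and 45, 26.9 and 35.1, 61.4 and 38.4, and 48 and 71.2, with a log2 change to late SP of 0.49 (SE 0.29, adjusted p = 0.149). Both BDP1 calls were lost under quantile normalization, where its log2 changes were 0.99 at the diauxic shift and 0.83 in late SP, and the late SP call was also lost without aerobic late SP culture 1 (0.97) or aerobic exponential culture 2 (0.99).

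MAF1 (YDR005C) gave 76.5 and 52.1 in the aerobic exponential phase, 82 and 55.1 in late exponential phase, 104 and 102 at the diauxic shift, 120.1 and 106 in the post-diauxic phase, 132 and 134 in early SP, and 199 and 142 in late SP. Without oxygen they were 55.4 and 52.2, 84.2 and 61.7, 141 and 106, and 120.5 and 159. All SP arrays lay above all exponential arrays, in both regimes. MAF1 was 2.66-fold higher in late SP than in the exponential phase with oxygen and 2.58-fold higher without (log2 changes 1.41 and 1.37, SE 0.25 for both, adjusted p = 0.000152 and 0.000196, limma), and none of the compared steps between neighbouring phases was called.

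TFIIIC subunits changed little and not as a group. TFC1 (YBR123C), which the study also used as 1 of its stable reference genes, had aerobic signals of 173 and 135, 137 and 154, 140 and 136, 161 and 142, 183 and 101, and 111 and 121, and anaerobic signals of 161 and 164, 172 and 167, 172 and 184, and 144 and 157. The aerobic late SP pair lay below all pairs but the wide one of aerobic early SP, and in no comparison was TFC1 called. TFC6 (YDR362C) gave 99.6 and 76.9, 84.7 and 90.2, 99.6 and 91.6, 126 and 101, 96.7 and 85.9, and 36.4 and 43.9 over the 6 aerobic phases, and 82.3 and 85.6, 54.6 and 85.6, 91.5 and 94, and 83.3 and 73.7 over the 4 anaerobic ones. The aerobic late SP pair lay below all its other arrays, with a log2 change from exponential phase of -1.13 (SE 0.21, adjusted p = 0.00019, limma). TFC7 was also lower in aerobic late SP (-1.02), where TFC4 gave -0.98 and was not called, and TFC4 alone was called in anaerobic late SP (-1.45). TFC3, the subunit that recognises the B block of the promoter, gave 0.93 in aerobic late SP, and TFC8 gave -0.44, neither called.

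**Figure D4:**
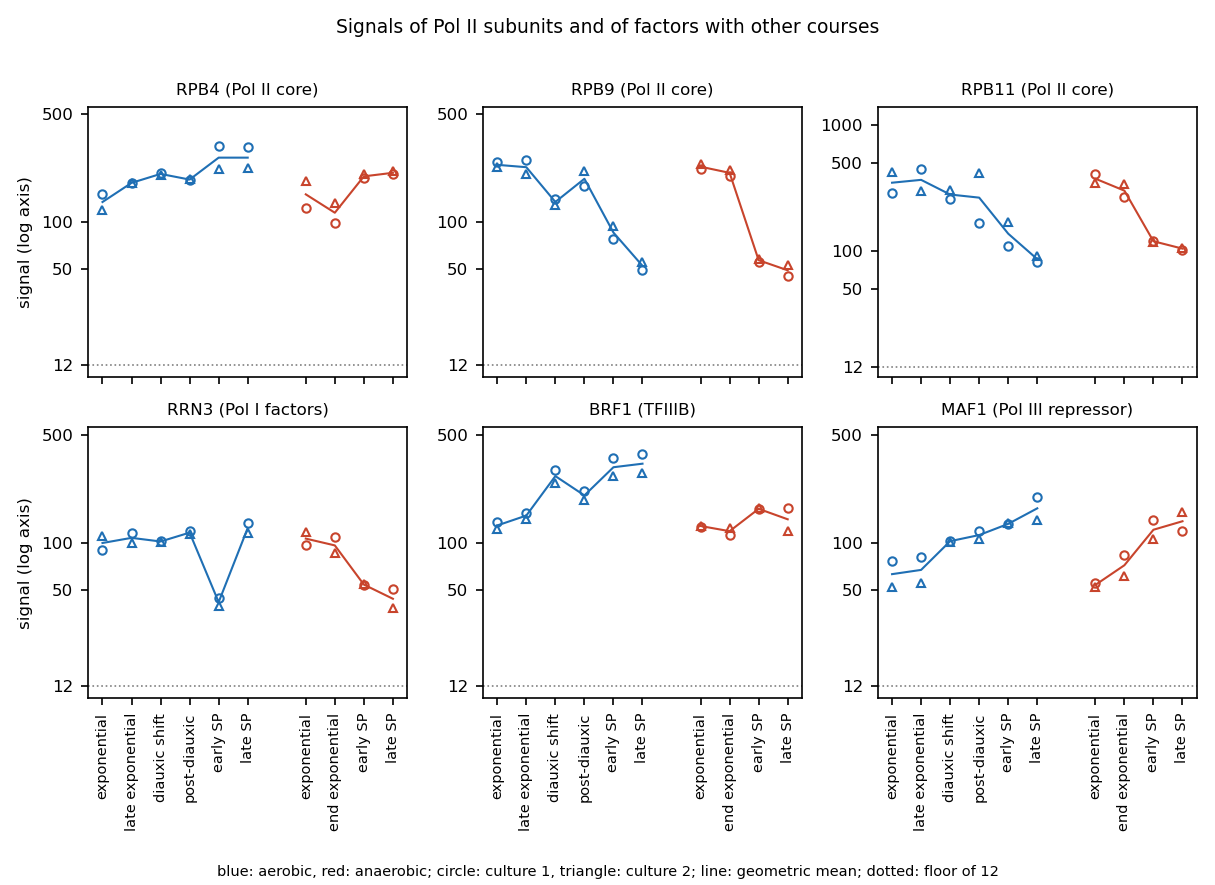
Signal (log axis, arbitrary array units) of 3 Pol II core genes (upper row) and of RRN3, BRF1 and MAF1 (lower row) in each aerobic (blue) and anaerobic (red) condition, with a circle for culture 1, a triangle for culture 2, a line through the geometric means and a dotted line at 12. RPB9 and RPB11 decline towards late SP while RPB4 does not, RRN3 dips in aerobic early SP and recovers, BRF1 is highest in aerobic cultures past the exponential phases, and MAF1 rises in both regimes.

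Aerobic and anaerobic cultures were compared in the phases of the same name, where oxygen and the supplements cannot be told apart. The SP groups also differ in what came before, as only aerobic cultures had a post-diauxic phase. In the exponential phase no member was called different between aerobic and anaerobic cultures in either direction, where 5.6% of all genes were called higher and 2.41% lower with oxygen, and the members' log2 differences lay between -0.81 (RPC34) and 0.23 (MAF1). In late SP 6 members were called higher in aerobic cultures and none lower, where 18.6% and 12.8% of all genes were. They were 4 Pol III core subunits, RPO31 (1.8, SE 0.24, adjusted p = 2.12e-05), RET1 (1.7, SE 0.18, adjusted p = 1.83e-06), RPC37 (at least 3.3-fold higher, adjusted p = 5.92e-05) and RPC82 (1.23, SE 0.24, adjusted p = 0.000702), with RRN3 (1.52, SE 0.19, adjusted p = 9.56e-06) and BRF1 (1.19, SE 0.2, adjusted p = 0.000173), all by limma. RPC37 signals were 50 and 31.3 with oxygen and 9.7 and 9.1 without, and RPC82 signals were 49.1 and 46.3 with oxygen and 22.6 and 18.4 without. The BRF1 call was lost without aerobic late SP culture 1 (0.99) or anaerobic late SP culture 2 (0.95), and with signals below 30 set to 30 those of RPC37 (0.4) and RPC82 (0.67) were lost. The share of members called, 6 of 46, was not above the share of all genes called higher. No member of the Pol I core, the shared subunits or the Pol II core was called in this comparison. RPB5 had the lowest value of the members at -0.99 (SE 0.26, adjusted p = 0.0053, limma).

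A test of the difference between the 2 courses, the change from exponential phase to late SP with oxygen minus that without, was positive and called for 9 members and negative for 1, where 19.3% and 14.9% of all genes were. The 6 Pol III core genes among them were RPO31 (2.57), RPC37 (1.95), RET1 (1.77), RPC34 (1.52), RPC82 (1.29) and RPC25 (1.12), and the median of the 10 Pol III core genes was 1.21, against 0.19 for the Pol I core, 0.44 for the Pol II core and 0.12 for all genes. RRN3 (1.61), BRF1 (1.18) and RRN6 (1.18, adjusted p = 0.0432) were the other positive calls, and TFC6 (-1.03) the negative one. With signals below 30 set to 30, RPC25, RPC34, RPC37 and RPC82, whose anaerobic SP signals lay under that level, lost their call, and RPO31 and RET1, with higher signals, did not. The values of RPC25, RPC34 and RPC37 are lower bounds, as their anaerobic late SP signals were below 12. The call of RRN6 was the least stable, lost under 12 of 18 alternatives, over which its adjusted p ran from 0.00797 to 0.224, and that of RPC34 was lost under 5 of 18.

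Glucose exhaustion was compared as well, the aerobic step from late exponential phase to the diauxic shift against the anaerobic step from the end of exponential phase to early SP, although the aerobic cultures had ethanol left and the anaerobic cultures did not grow on. The aerobic change was the higher of the pair, by the call, for 11 members and the lower for none, where 13.5% of all genes were called in the first direction and 6.8% in the second. They were RPC82 (2.47, SE 0.35, adjusted p = 0.000196), RPC34 (at least 2.07), RPC37 (1.85), RPC53 (1.66), RPC17 (1.28), RPA12 (1.27), RPC19 (1.25), RRN7 (at least 1.18), RPB9 (1.13), TFC4 (1.07) and RPO26 (1.05), where the values of RPC34 and RRN7 are bounds because both were below 12 in anaerobic early SP. The calls of RPO26 (lost under 10 of 19 alternatives), RPC17 and RRN7 (9 of 18 each) and RPC19 (7 of 19) were unstable, and each of the others was lost under at most 2. At the aerobic diauxic shift RPC82 stood at 91.8 and 108 after 136 and 74.3, and in anaerobic early SP at 20.5 and 21.4 after 109 and 126, with no overlap of the anaerobic groups and full overlap of the aerobic ones. RPC31 had the opposite sign (-0.82, SE 0.29, adjusted p = 0.0525, limma), which was not called. Its value is a bound too, since RPC31 was below 12 on both aerobic diauxic shift arrays, and the true difference may be more negative. Leaving out culture 2 of the aerobic late exponential phase reduced the 11 calls to 6, of which 5 were shared.

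Other genes of the transcription machineries were read from lists that did not enter the 46. Of the 19 general factors of Pol II, 2 were higher and 2 lower in aerobic late SP than in the exponential phase (25.2% and 26.3% of all genes), and none was higher and 4 were lower in anaerobic late SP (23.8% and 29.8%), each count being below the matching share of all genes. CCL1, the cyclin of the TFIIH kinase, gave 111 and 99.4 in the aerobic exponential phase and 528 and 459 in aerobic late SP (log2 change 2.23, adjusted p = 8.89e-08, limma), and 102 and 118 and then 120.2 and 120.6 without oxygen. SPT15, the TATA-binding protein that all 3 polymerases use, was called in anaerobic cultures alone (-1.09, adjusted p = 0.000121). Of the 9 elongation factors, 1 was higher and 4 lower in aerobic late SP, among them SPT4 (-2.36, adjusted p = 4.41e-09), whose partner SPT5 was the 1 that was higher (1.29, adjusted p = 6.78e-05). Of 7 genes for polymerase assembly and import, 1 rose and 1 fell in aerobic late SP and 2 rose and 5 fell in anaerobic late SP. GPN3 fell in both (-2.32 and -2.87), and IWR1, which brings assembled Pol II into the nucleus, rose in both (1.99 and 2.46). Among 5 further genes tied to Pol I and Pol III, RPC10, the smallest subunit of all 3 enzymes, gave 129 and 108 in aerobic late SP and 37.2 and 42.9 in anaerobic late SP, a log2 difference of 1.56 (adjusted p = 2.64e-05), and LHP1, which binds new Pol III transcripts, fell by 2.47 with oxygen and with a log2 change of -3.33 without it.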

How the data were processed

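Messenger RNA from 20 culture samples was labelled and hybridized to Affymetrix YG-S98 arrays. Intensity was deposited by the authors on a linear scale, with 1 signal per probe set, which they had scaled to a common average signal on each array. The array software and its version are not given in the sources used here. The table held 9335 features and was used without further scaling. After the authors' methods, signals below 12 were set to 12, and of 6647 features of protein-coding genes the 580 that never reached 20 were left out, which left 6067. For a gene with several probe sets, a probe set with a single symbol and, among these, the one with the highest mean signal was used, which gave 5266 genes. Among the members, 3 had several probe sets.

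The fit, in limma 3.58.1 under R 4.3.3, had 10 group means of log2 signals, 20 arrays, 10 residual degrees of freedom and 4.732 prior ones. Its p-values were adjusted over the tested features (Benjamini-Hochberg), and genes at least 2-fold changed with an adjusted p under 0.05 were called. An exact permutation test of 2 cultures against 2 cannot give a two-sided p below 0.333. The median and number of members called were set beside those of all genes, and no test over the list was made. The precision is limited by the number of cultures and by signals near the floor.

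The members and lists were chosen with earlier results of these data known. All 46 members could be named, with signals of every array for the large subunits, RRN3, BRF1, MAF1, TFC1 and the member of each role with the largest aerobic change. Comparisons of aerobic late with early SP, of the post-diauxic with the exponential phase, and of the changes at glucose exhaustion were added after the data had been seen. Same-numbered samples of a regime are 1 culture followed in time, as the methods of the study state. Their deviations from the group means correlated with a median r of 0.121 over 15 aerobic pairs of conditions (-0.555 to 0.373) and 0.0936 over 6 anaerobic pairs, so the block was an alternative. Other alternatives were a floor of 30, other filters, quantile normalization, scaling to 5 reference genes (without TFC1, a member), a trended spread, all features, a random block, no fold threshold, the compared arrays alone, and leaving out each array. The procedure was also run on simulated data, with changes added only to features well above the floor. That run does not cover members with signals near the floor. Plots were made in matplotlib 3.10.9 (Python 3.11.15). Gene names come from the annotation of the array platform, and systematic names from the RefSeq gene table, where all 46 matched.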

Additional observations from a re-analysis of the deposited data

Results flagged for a closer look

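For 10 members the change from exponential phase to late SP differed between aerobic and anaerobic cultures in the limma fit over all genes, in which 34.1% of genes met the same criteria. The differences, aerobic minus anaerobic, were 2.57 for RPO31 (SE 0.34, adjusted p = 3.73e-05), 1.77 for RET1 (SE 0.25, adjusted p = 6.43e-05), 1.95 for RPC37 (SE 0.36, adjusted p = 0.000668), 1.52 for RPC34 (SE 0.44, adjusted p = 0.0131), 1.29 for RPC82 (SE 0.35, adjusted p = 0.00811) and 1.12 for RPC25 (SE 0.32, adjusted p = 0.0116), all on the log2 scale and all of Pol III core subunits. Among the factors they were 1.61 for RRN3 (SE 0.26, adjusted p = 0.000237), 1.18 for RRN6 (SE 0.44, adjusted p = 0.0432), 1.18 for BRF1 (SE 0.28, adjusted p = 0.00412) and -1.03 for TFC6 (SE 0.3, adjusted p = 0.0118). RPC25, RPC34 and RPC37 were below the floor of 12 on both anaerobic late SP arrays, so that their values are lower bounds. The RRN6 call was lost under 12 of 18 alternatives.

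For 11 members the change at glucose exhaustion differed between the regimes, where 20.3% of all genes did. The differences were 2.47 for RPC82 (adjusted p = 0.000196), 2.07 for RPC34 (adjusted p = 0.00437), 1.85 for RPC37 (adjusted p = 0.00252), 1.66 for RPC53 (adjusted p = 0.002) and 1.28 for RPC17 (adjusted p = 0.0338) in the Pol III core. They were 1.27 for RPA12 (adjusted p = 0.00723), 1.25 for RPC19 (adjusted p = 0.0215), 1.18 for RRN7 (adjusted p = 0.0325), 1.13 for RPB9 (adjusted p = 0.00457), 1.07 for TFC4 (adjusted p = 0.00627) and 1.05 for RPO26 (adjusted p = 0.0391), all by limma. RPC34 and RRN7 were below 12 on both anaerobic early SP arrays, so that their values are lower bounds. No explanation was tested.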

How the results depend on the processing

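Over all members, comparisons and alternatives, 8263 values kept their side of the threshold, where the sign of uncalled values was not checked. Of the rest, 141 lost and 160 gained a call, and none with a call changed direction. With signals below 30 set to 30, the calls in the difference of the 2 courses to late SP went from 10 to 5 and at glucose exhaustion from 11 to 5, as values under 30 were made equal. Quantile normalization gave 6 calls at glucose exhaustion and 9 in the post-diauxic against the exponential phase, where the main fit had 3, and moved the median of all genes from 0 to -0.27 in aerobic late SP against exponential phase and from 0.1 to -0.11 between the late SP groups. Without a fold threshold there were 13 calls between the late SP groups (main fit 6), 11 between aerobic late and early SP (5), and 16 in the post-diauxic against the exponential phase. With the compared arrays alone the last gave 1, with fewer samples in the fit.

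Leaving out 1 array gave 0 to 2 calls between the exponential phases, 5 to 9 between the late SP groups, 15 to 20 at the diauxic shift, 8 to 14 in the post-diauxic phase against it (8 without aerobic diauxic shift culture 1), 23 to 26 on entry into aerobic early SP, 27 to 29 in aerobic and 32 to 35 in anaerobic late SP against exponential phase, 26 to 28 on entry into anaerobic early SP, 7 to 12 in the difference to late SP, 6 to 15 in that at glucose exhaustion, 5 to 7 between aerobic late and early SP, and 1 to 9 in the post-diauxic against the exponential phase. The last range was set by aerobic exponential culture 1 (9 without it) and culture 2 (1 without it) and by post-diauxic culture 1 (1 without it). The 2 calls between exponential phases appeared without aerobic exponential culture 2. At glucose exhaustion, 7 calls were left without anaerobic early SP culture 1 or end exponential culture 2.

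The replicate block was the culture in comparisons within a regime and the replicate number in those between regimes. There the number joins separate aerobic and anaerobic cultures, so it is not a pairing. With the number as a block, RRN6 in the difference of the courses to late SP lost its call (adjusted p = 0.0516, limma). Its call was lost under 12 of its 18 alternatives. No other call changed with a replicate block, and a random block changed none. BRF1 in late SP lost its call with reference gene scaling (0.99) and without aerobic late SP culture 1 (0.99) or anaerobic late SP culture 2 (0.95). The cause of the other changes was not tested. Promoter motifs were not analysed here. Signals near the floor limit RRN9, RRN11, RRN7, RPC31, RPA12, RPA43, RPC34, RPC25 and RPC37, and on 1 array each RPA49 and RPC17.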

Other observations

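The arrays also carry features for the products of Pol I and Pol III, although messenger RNA had been isolated before labelling, so that their signals do not measure the content of these RNAs in the cells. In cultures 1 and 2, a 25S ribosomal RNA control feature (25S control c) gave 59.5 and 45 in aerobic and 96.5 and 104 in anaerobic exponential phase, and 360 and 507 in aerobic and 2697 and 2335 in anaerobic late SP. Another control feature of the same RNA (25S control a) gave 4652 and 8539 in aerobic exponential phase and 9227 and 9525 in aerobic late SP, and 6269 and 7354 and then 6581 and 8028 without oxygen. The features of 1 RNA thus differed in their course. RPR1, the RNA of ribonuclease P and a Pol III product, gave 101 and 243 in aerobic exponential phase and 596 and 539 in late SP, and 174 and 124 and then 902 and 666 without oxygen. SNR6, the U6 spliceosomal RNA, also made by Pol III, gave 22.3 and 33.8 and then 136 and 133 with oxygen, and 21 and 2.6 and then 757 and 851 without. SNR52, a Pol III transcribed small nucleolar RNA, was below 12 on every array but the 2 of aerobic late SP, at 20.6 and 20.2. Those 2 arrays also had the fewest features below 12, 1823 and 1847 against 2279 to 2822 elsewhere. The 5S ribosomal RNA features, also of Pol III, differed among themselves. The stronger RDN5-1 feature gave 4087 and 4983 in aerobic exponential phase and 786.5 and 1491 at the diauxic shift. Its late SP signals were 3611 and 3468.5 with oxygen, and it went from 5708 and 5219 to 9121 and 8901 without. The weaker one went from 1047 and 1777.5 to 1310 and 988 with oxygen, and RDN5-3 from 563 and 360 to 1518 and 1050. Without oxygen all of these were higher in late SP.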
